A study of Mus musculus with 6 samples.

Results

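The transcripts of 37 genes of glycolysis and the citric acid cycle were examined in the brains of adult Bahd1-KO mice. The genes were taken by name from the table of all genes: 16 glycolytic enzymes with both lactate dehydrogenases among them, 4 subunits of the pyruvate dehydrogenase complex, 14 enzymes of the citric acid cycle with their cytosolic counterparts, and the genes Pfkfb3, Slc2a3 and Me1. They matched 38 of the 53801 rows, because Aldoa is listed under 2 identifiers, and all 38 rows were among the 23975 that were tested. All 37 genes code for proteins and lie on 15 chromosomes, with 8 of them on chromosome 6 and 3, namely Pgk1, Pdha1 and Idh3g, on the X chromosome.

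RNA was extracted from one hemisphere per mouse, with 3 Bahd1-WT (Bahd1+/+) and 3 Bahd1-KO (Bahd1-/-) animals, all C57BL/6 and about 70 weeks old. Both genotypes came from matings of heterozygous mice, so that the knockout is carried in the germ line and is not limited to a cell type of the brain. BAHD1 is a protein of repressive chromatin, and the comparison asks how its loss bears on transcript levels in the adult brain. The libraries held 42297150 to 93557948 counts, and the counts of Bahd1 itself were 1383, 844 and 1099 in Bahd1-WT against 0, 14 and 1 in Bahd1-KO. The tissue is a mixture of cells, so that fewer cells of a type and less RNA per cell cannot be told apart.

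Glycolysis turns glucose into pyruvate in the cytosol. Pyruvate is either reduced to lactate by lactate dehydrogenase or enters the mitochondria, where the pyruvate dehydrogenase complex makes acetyl-CoA from it and the citric acid cycle oxidizes the acetyl group. Glucose is the main fuel of the adult brain, and many of these steps are catalyzed by isozymes that differ between neurons and glia or between cytosol and mitochondria.

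Of the 16 glycolytic genes, 13 were higher in the Bahd1-KO brains with an adjusted p under 0.1, of the 4 subunits of the pyruvate dehydrogenase complex 0, and of the 14 genes of the citric acid cycle 4, beside 14.7% of all genes tested, while none of them had an adjusted p under 0.05. The difference between these roles was not tested, and it narrowed with the corrections for GC content and length given further on. Levels are given in CPM, counts scaled to a common library size, with library sizes normalized by TMM, a method that sets the bulk of genes equal between libraries. The summed level of the 16 glycolytic enzymes was 3284, 2418 and 2925 CPM in Bahd1-WT replicates 1, 2 and 3 and 4289, 8326 and 5033 CPM in Bahd1-KO replicates 1, 2 and 3, a ratio of means of 2.05. Each Bahd1-KO mouse lay above each Bahd1-WT mouse, and Bahd1-KO replicate 2 stood well above the other 2 knockouts. The summed level of the pyruvate dehydrogenase complex and the citric acid cycle was 3099 to 3388 CPM in Bahd1-WT and 3204 to 3648 CPM in Bahd1-KO, ranges that overlap, with a ratio of 1.09.

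By edgeR's quasi-likelihood test with Benjamini-Hochberg adjustment over all genes tested, 0 of the 37 genes reached an adjusted p under 0.05 with at least a 2-fold change, the threshold for a call, which only 0.00834% of all genes reached. At an unadjusted p under 0.05, 17 genes were higher and 0 lower in Bahd1-KO, where 19.9% of all genes were higher and 12% lower. The same 17 had an adjusted p under 0.1, between 0.0634 and 0.0862, against 14.7% of all genes on the higher side and 4.77% on the lower. In 20 genes the lowest Bahd1-KO mouse lay above the highest Bahd1-WT mouse and in 0 genes the reverse held, against 20.6% and 19.3% of all genes. DESeq2's Wald test called 9 of the 37 with a prior on fold changes and 10 without it, all higher in Bahd1-KO, against 9.61% and 10.5% of all genes. In edgeR, scaling to total counts gave 9 calls and leaving out the filter on low counts 10, all higher, against 7.88% and 7.58% of all genes. The median log2 fold change of the 37 genes was 0.31, beside -0.06 over all genes, and 28 were higher and 9 lower, where 46.6% of all genes were higher. The count of 17 with an adjusted p under 0.1 depended on the mice: it was 0 when Bahd1-WT replicate 1, 2 or 3 or Bahd1-KO replicate 3 was left out, where 0%, 0.00427%, 0.00853% and 0% of all genes, in this order, were higher at that threshold. It was 12 without Bahd1-KO replicate 2, against 8.94% of all genes, and without Bahd1-KO replicate 1 edgeR called 11 genes, all higher, against 14.6% of all genes. On the lower side, 4 genes had an adjusted p under 0.1 without that mouse, 5 an unadjusted p under 0.05 and 9 no overlap, against 17.3%, 18.6% and 30.4% of all genes. With upper-quartile factors 1 gene was lower at an unadjusted p under 0.05 and 1 without overlap, against 18.1% and 24.7% of all genes.

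**Figure D1:**
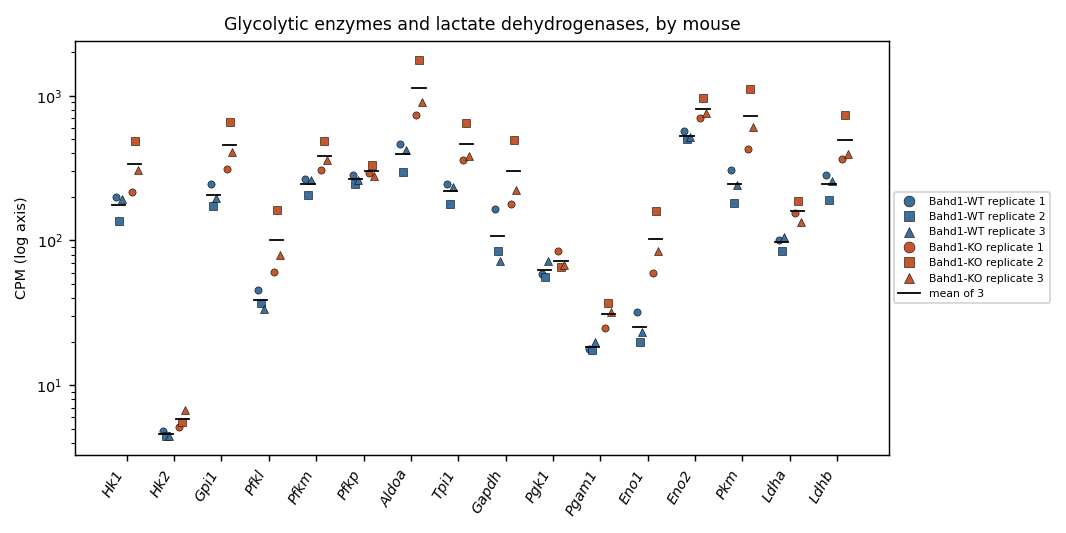
Level in CPM (log axis) of the 16 glycolytic enzymes and lactate dehydrogenases in each of the 3 Bahd1-WT (blue) and 3 Bahd1-KO (orange) mice, with a bar for the mean of 3. Aldoa ranges from 297 CPM in Bahd1-WT replicate 2 to 1777 CPM in Bahd1-KO replicate 2, and Pfkp and Pgk1 overlap between genotypes.

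Upper glycolysis traps glucose in the cell and splits it. Hexokinase 1 (Hk1), the main hexokinase of the brain, was at 201, 136 and 194 CPM in the 3 Bahd1-WT mice and at 217, 484 and 308 CPM in the 3 Bahd1-KO mice. The groups did not overlap, but Bahd1-KO replicate 1 lay only just above the Bahd1-WT mice, and the log2 fold change was 0.93 ± 0.29 (SE, 3 mice per genotype, adjusted p = 0.0801). Hk2, the hexokinase of muscle and of many growing cells, was scarce, at 4.45 to 4.80 CPM in Bahd1-WT and 5.17 to 6.70 CPM in Bahd1-KO, with a log2 fold change of 0.35 (adjusted p = 0.257). Glucose-6-phosphate isomerase (Gpi1) was at 245, 174 and 198 CPM in Bahd1-WT and 309.8, 661 and 406 CPM in Bahd1-KO, and its log2 fold change was 1.16 ± 0.28 (adjusted p = 0.0634).

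Phosphofructokinase, which commits sugar to glycolysis, has 3 isozymes, with log2 fold changes from 0.19 to 1.38. Pfkl, the liver type, was at 45.3, 36.8 and 33.8 CPM in Bahd1-WT and 60.9, 163 and 79.2 CPM in Bahd1-KO, a log2 fold change of 1.38 ± 0.34 (adjusted p = 0.0634). Pfkm, the muscle type, had a log2 fold change of 0.66 ± 0.20 (adjusted p = 0.0795), from 205 to 264 CPM in Bahd1-WT and 309 to 487 CPM in Bahd1-KO. Pfkp, the platelet type, overlapped between the genotypes, at 247 to 285 CPM in Bahd1-WT and 278 to 332 CPM in Bahd1-KO (0.19 ± 0.15). With the offsets described further on, on the longest and then the principal transcripts, Pfkp was at 0.38 and 0.31. Its groups then did not overlap (edgeR, adjusted p = 0.141 and 0.169). Pfkm was at -0.03 and 0.05 and Pfkl at 0.32 and 0.34 with these offsets, both with overlapping groups. Pfkfb3, which makes the allosteric activator of phosphofructokinase, was at 47.3 to 60.4 CPM in Bahd1-WT and 48.0 to 58.8 CPM in Bahd1-KO, with a log2 fold change of 0.01.

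Aldolase A (Aldoa), which splits fructose 1,6-bisphosphate, had the highest level per transcript length of the glycolytic genes in both genotypes. It was at 463, 297 and 422 CPM in Bahd1-WT and 732, 1777 and 903 CPM in Bahd1-KO. The groups were far apart, with a log2 fold change of 1.53 ± 0.33 (adjusted p = 0.0634). The other row named Aldoa covers an adjoining stretch of chromosome 7 and held 3 to 55 counts per library, and adding both rows left the ratio of means at 1.53 on the log2 scale. Triosephosphate isomerase (Tpi1) had a log2 fold change of 1.08 ± 0.25 (adjusted p = 0.0634), from 178 to 244 CPM in Bahd1-WT and 359.9 to 649 CPM in Bahd1-KO.

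Lower glycolysis recovers ATP and ends in pyruvate. Enolase 1 (Eno1), the enolase of most tissues and of glia, had the largest log2 fold change of the 37 genes. It was at 32.2, 19.8 and 23.4 CPM in Bahd1-WT and 59.8, 161 and 84.9 CPM in Bahd1-KO. Its lowest Bahd1-KO mouse lay above its highest Bahd1-WT mouse by more than the range of the Bahd1-WT mice, and the log2 fold change was 2.02 ± 0.36 (adjusted p = 0.0634). Enolase 2 (Eno2), the neuronal enolase, had a higher level per transcript length (189.7 against 12.4 CPM per kb in Bahd1-WT) and a smaller log2 fold change, at 567, 502 and 522 CPM in Bahd1-WT and 705, 972 and 765 CPM in Bahd1-KO (0.62 ± 0.17, adjusted p = 0.065). In CPM, each Bahd1-KO mouse lay above each Bahd1-WT mouse for both enolases, but with the offsets for GC content and length described further on Eno2 was at -0.07 and -0.01 with overlapping groups.

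Pyruvate kinase M (Pkm), the last enzyme of the pathway, was at 309, 182 and 243 CPM in Bahd1-WT and 428, 1121 and 607 CPM in Bahd1-KO, a log2 fold change of 1.55 ± 0.35 (adjusted p = 0.0634). Glyceraldehyde-3-phosphate dehydrogenase (Gapdh), which is often used as a reference gene, was at 164, 85.1 and 71.7 CPM in Bahd1-WT and 179.8, 496 and 223 CPM in Bahd1-KO (1.49 ± 0.43, adjusted p = 0.0692). Bahd1-WT replicate 1 came close to Bahd1-KO replicate 1 in Gapdh, so that the gap between the genotypes was narrow beside the spread within each. Phosphoglycerate mutase 1 (Pgam1) ran from 17.6 to 19.8 CPM in Bahd1-WT and from 24.8 to 37 CPM in Bahd1-KO (0.76 ± 0.19, adjusted p = 0.0635). Phosphoglycerate kinase 1 (Pgk1) was the exception of lower glycolysis, at 59.1, 55.9 and 72.0 CPM in Bahd1-WT and 85.1, 65.2 and 67.6 CPM in Bahd1-KO, with overlapping groups and a log2 fold change of 0.22 (adjusted p = 0.400). In all, 13 of the 16 glycolytic genes had an adjusted p under 0.1, and Hk2, Pfkp and Pgk1 did not.

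Lactate dehydrogenase links pyruvate and lactate, and its subunits are encoded by Ldha, which prevails where lactate is made, and Ldhb, which prevails where it is used. Ldha was at 100.4, 85.0 and 106 CPM in Bahd1-WT and 156, 187 and 134 CPM in Bahd1-KO, and Ldhb at 283, 191 and 257 CPM against 365, 731 and 397 CPM. Neither overlapped between genotypes, and the log2 fold changes were 0.71 ± 0.18 for Ldha (adjusted p = 0.0634) and 1.03 ± 0.28 for Ldhb (adjusted p = 0.0655).

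The pyruvate dehydrogenase complex, the gate from glycolysis to the mitochondria, gave no such values. Its 4 subunits had log2 fold changes of -0.22 for Pdha1 and -0.24 for Pdhb, which form the decarboxylating enzyme, -0.39 for Dlat, the acetyltransferase, and -0.16 for Pdhx, which binds the complex together, and in each the groups overlapped. Dlat was at 152, 167 and 160.1 CPM in Bahd1-WT and at 153, 94.8 and 119 CPM in Bahd1-KO. Here Bahd1-KO replicate 1 lay within the Bahd1-WT range and the other 2 knockouts below it. Without Bahd1-KO replicate 1, Dlat had a log2 fold change of -0.55 (adjusted p = 0.0336) and Pdhb one of -0.44 (adjusted p = 0.0589), but without Bahd1-KO replicate 2 they were at -0.24 (adjusted p = 0.328) and -0.14 (adjusted p = 0.657). With the offset on principal transcripts described further on, Dlat was at -0.18 and Pdhb at -0.12. Pdha1 was at 0.07 and Pdhx at 0.12 there, of the opposite sign to the fit without offset.

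**Figure D2:**
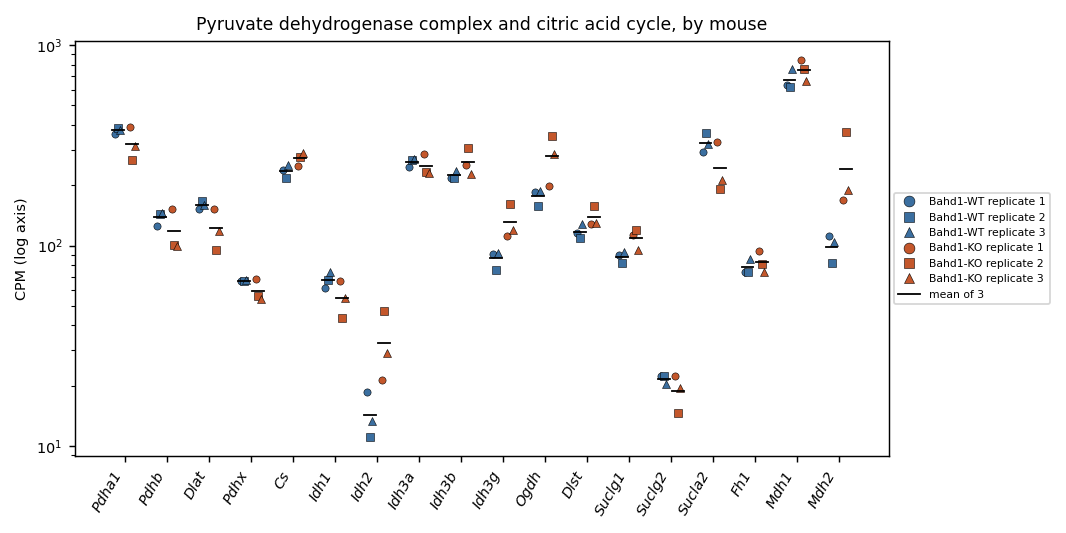
Level in CPM (log axis) of the 4 genes of the pyruvate dehydrogenase complex and the 14 of the citric acid cycle in each of the 3 Bahd1-WT (blue) and 3 Bahd1-KO (orange) mice, with a bar for the mean of 3. Idh2, Mdh2, Idh3g, Ogdh, Suclg1 and, by the least, Dlst are separated between genotypes, while Sucla2 has 2 of 3 Bahd1-KO mice, at 192 and 212 CPM, under all Bahd1-WT mice.

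In the citric acid cycle, 4 of 14 genes had an adjusted p under 0.1, all on the higher side, where 14.7% of all genes were. Mitochondrial malate dehydrogenase (Mdh2), which regenerates oxaloacetate, was at 111, 81.5 and 104 CPM in Bahd1-WT and 169, 368 and 190.0 CPM in Bahd1-KO (1.29 ± 0.30, adjusted p = 0.0634). Mitochondrial NADP-dependent isocitrate dehydrogenase (Idh2) was at 18.5, 11.1 and 13.3 CPM in Bahd1-WT and 21.4, 47.3 and 29.1 CPM in Bahd1-KO (1.19 ± 0.32, adjusted p = 0.0647). Their cytosolic counterparts had overlapping groups. Mdh1 was at 630.4, 619 and 759 CPM against 847, 759 and 660.3 CPM, with overlapping groups and a log2 fold change of 0.17 (adjusted p = 0.476). Idh1 was at 61.2, 67.6 and 73.4 CPM against 66.2, 43.8 and 54.5 CPM, with a log2 fold change of -0.30 (adjusted p = 0.288).

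Of the NAD-dependent isocitrate dehydrogenase, the enzyme of the cycle proper, the regulatory subunit Idh3g had a log2 fold change of 0.60 ± 0.18 (adjusted p = 0.0774), while Idh3b (0.23) and the catalytic Idh3a (-0.07) overlapped between genotypes. Of the 2-oxoglutarate dehydrogenase complex, Ogdh was at 158 to 186 CPM in Bahd1-WT and 199 to 352 CPM in Bahd1-KO (0.66 ± 0.22, adjusted p = 0.0862), and Dlst, its succinyltransferase, had a log2 fold change of 0.24. Succinyl-CoA ligase has a common subunit, Suclg1, with a log2 fold change of 0.31 (adjusted p = 0.195), and its GTP- and ADP-specific partners Suclg2 and Sucla2 were at -0.21 and -0.42. Sucla2 had the lowest log2 fold change of the 37 genes, at 293, 364 and 322 CPM in Bahd1-WT and 327, 192 and 212 CPM in Bahd1-KO (adjusted p = 0.211), and its Bahd1-KO replicate 1 again lay within the Bahd1-WT range. Without that mouse the log2 fold change of Sucla2 was -0.67 (adjusted p = 0.0193) and that of Idh1 -0.43 (adjusted p = 0.0906), but without Bahd1-KO replicate 2 they were -0.28 (adjusted p = 0.376) and -0.17 (adjusted p = 0.526). With the offset on principal transcripts Sucla2 was at -0.04 and Idh1 at 0.07. Citrate synthase (Cs, 0.20), fumarase (Fh1, 0.09), the neuronal glucose transporter Slc2a3 (0.13) and cytosolic malic enzyme (Me1, -0.14) had adjusted p from 0.345 to 0.719 and overlapping groups.

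**Figure D3:**
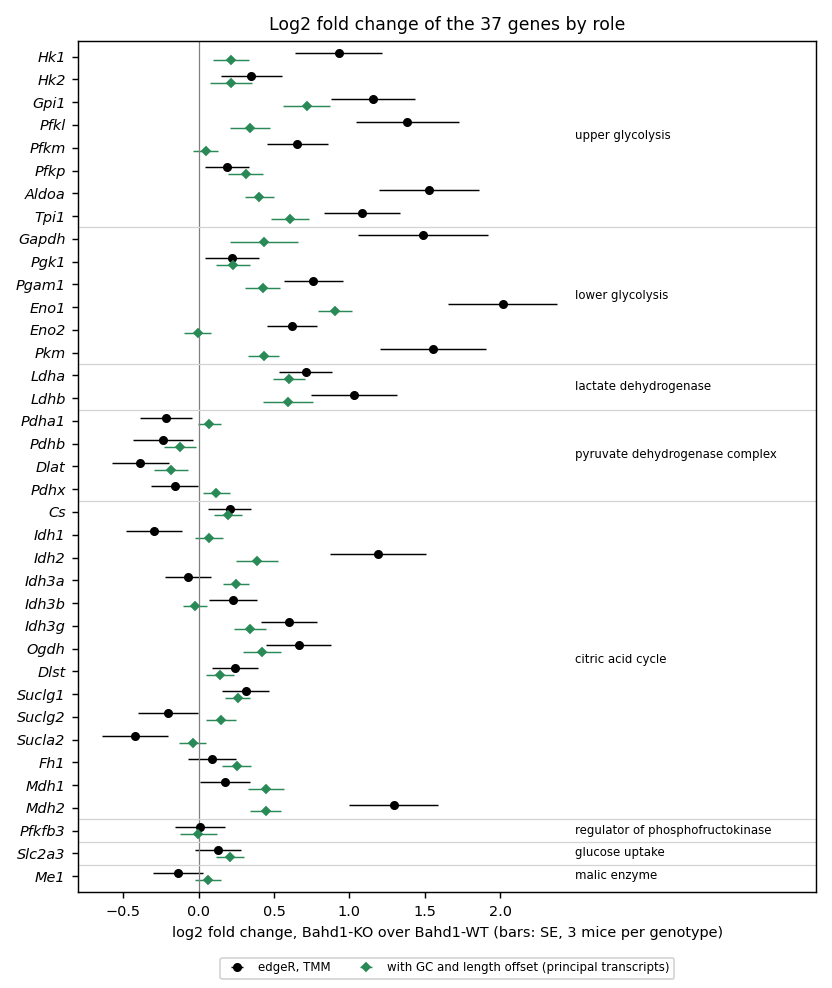
Log2 fold change of the 37 genes, Bahd1-KO over Bahd1-WT, by role, with bars for the SE (3 mice per genotype): black circles for edgeR with TMM, green diamonds for the same test with an offset for GC content and length. Black circles run from -0.42 (Sucla2) to 2.02 (Eno1) and green diamonds from -0.18 (Dlat) to 0.90 (Eno1).

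Isozymes that share a step can be set against each other within a library, since their ratio does not depend on its scaling, though it can depend on a trend with GC content or length. Per length of the longest transcript, mitochondrial Idh2 made up 28.0, 17.4 and 18.9% of Idh1 and Idh2 in Bahd1-WT and 29.4, 58.2 and 40.7% in Bahd1-KO. Mdh2 made up 18.9, 14.8 and 15.3% of Mdh1 and Mdh2 in Bahd1-WT and 20.9, 39.0 and 27.5% in Bahd1-KO. In both families the Bahd1-KO mice lay above the Bahd1-WT mice, replicate 1 only just and replicate 2 by the most. The share of Eno2 in the enolases was 93.9 ± 1.1% in Bahd1-WT and 85.9 ± 4.1% in Bahd1-KO (SD, n = 3), and that of Pfkl in the phosphofructokinases 8.28 ± 1.15% and 13.2 ± 3.7%, with groups that did not overlap. Pfkp went from 24.3 to 18.2% on average, also without overlap. Per length of the principal transcript the directions of the 9 shares were the same, but some levels moved, with Pfkp going from 40.2 to 31.7% and Pfkl from 6.53 to 11.1%. The shares were not corrected for GC content, and the log2 fold changes with the offsets described further on, first on the longest and then on the principal transcripts, gave other ratios. The Bahd1-KO minus Bahd1-WT difference in the log2 ratio of Pfkp to Pfkm was -0.47 without an offset and 0.41 and 0.27 with them, so that its direction turned. That of Mdh2 to Mdh1 went from 1.12 to 0.68 with the longest transcripts, and with the principal ones both genes had the same log2 fold change of 0.44. That of Idh2 to Idh1 went from 1.49 to 0.30 and 0.32, and that of Eno2 to Eno1 was at -0.94 and -0.91 with the offsets. The shares of Hk2, Pfkm, Ldhb and Suclg2 overlapped. For the 5 shares without overlap the exact two-sided permutation test gave p = 0.1, the smallest that 3 against 3 mice allow, and p = 0.18 after Benjamini-Hochberg adjustment over 9 shares, so that none could pass 0.05.

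**Figure D4:**
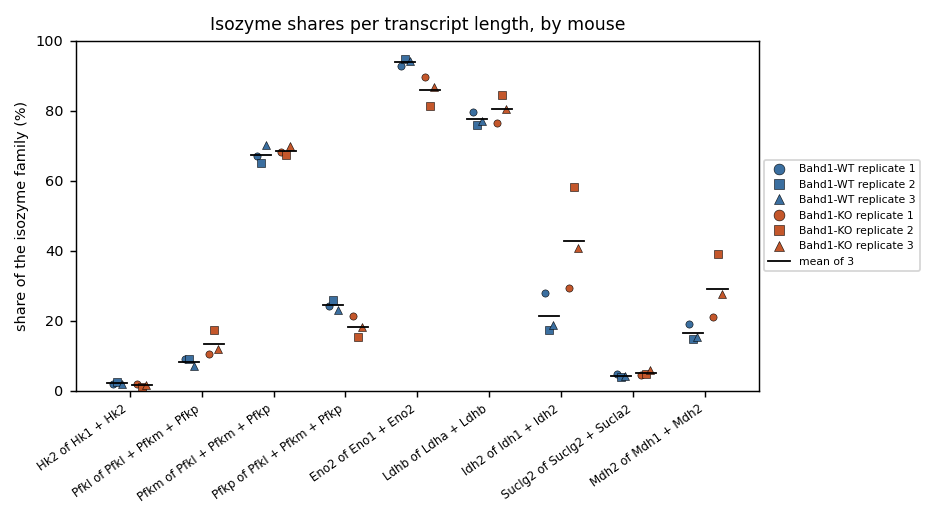
Share of an isozyme in the sum of its family, in percent of counts per transcript length, in each of the 3 Bahd1-WT (blue) and 3 Bahd1-KO (orange) mice, with a bar for the mean of 3. Idh2 runs from 17.4 to 28.0% in Bahd1-WT and from 29.4 to 58.2% in Bahd1-KO, and Eno2 is lower in each Bahd1-KO mouse.

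The members of the Idh and Mdh pairs are also unlike in base composition. The stretches printed here, each of 150 bases from the longest coding exon of the principal transcript (the one APPRIS marks as the main form), show the contrast for both mitochondrial and cytosolic pairs, with G and C in capitals. Idh1 (exon 3 of 9, chr1:65171101-65171250, minus strand) holds 44.7% G and C and Idh2 (exon 3 of 11, chr7:80100759-80100908, minus strand) 52.7%. Mdh1 (exon 6 of 9, chr11:21559726-21559875, minus strand) holds 44.0% and Mdh2 (exon 2 of 9, chr5:135783305-135783454, plus strand) 56%. All are coding sequence of the GRCm38 build, read 5′ to 3′ on the strand of the gene from the GENCODE transcripts.
Idh1: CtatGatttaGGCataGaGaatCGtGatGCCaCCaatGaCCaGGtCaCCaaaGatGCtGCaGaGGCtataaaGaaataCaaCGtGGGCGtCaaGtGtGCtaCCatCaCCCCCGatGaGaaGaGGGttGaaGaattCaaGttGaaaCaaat
Idh2: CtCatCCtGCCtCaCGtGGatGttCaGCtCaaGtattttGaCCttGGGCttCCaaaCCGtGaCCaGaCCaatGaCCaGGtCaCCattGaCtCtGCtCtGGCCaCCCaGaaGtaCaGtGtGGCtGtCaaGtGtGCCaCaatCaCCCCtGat
Mdh1: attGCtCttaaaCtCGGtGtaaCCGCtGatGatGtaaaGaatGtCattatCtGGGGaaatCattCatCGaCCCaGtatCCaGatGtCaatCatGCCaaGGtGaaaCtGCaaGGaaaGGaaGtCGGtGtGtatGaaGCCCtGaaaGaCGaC
Mdh2: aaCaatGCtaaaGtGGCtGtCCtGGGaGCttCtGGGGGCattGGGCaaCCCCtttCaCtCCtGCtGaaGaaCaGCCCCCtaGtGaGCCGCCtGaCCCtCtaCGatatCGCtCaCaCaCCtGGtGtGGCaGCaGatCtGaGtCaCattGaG

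Over the 37 genes, the log2 fold change and the GC content of the principal transcript went together with Spearman's rho = 0.95, and with Pearson's r = 0.89 and rho = 0.89 for the longest transcript. These correlations are across genes measured in the same 6 libraries, and they are a description. GC content at the third codon position gave rho = 0.82. The 17 genes with an adjusted p under 0.1 had principal transcripts of 51.0 to 57.7% GC, and the other 20 of 43.2 to 52.1%. By the longest transcript, all 19 genes above 50% GC were higher in Bahd1-KO and 17 of them had an unadjusted p under 0.05, while of the 18 genes at or below 50% GC 9 were higher and 0 had such a p. Over all 23940 genes with a sequence, rho was 0.74. In single libraries, a gene's deviation from the other 5 went with GC content with rho = -0.80, -0.85 and -0.88 in Bahd1-WT replicates 1, 2 and 3 and -0.33, 0.88 and 0.90 in Bahd1-KO replicates 1, 2 and 3. The part of GC content in the higher glycolytic values was not tested beyond the fits that follow.

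**Figure D5:**
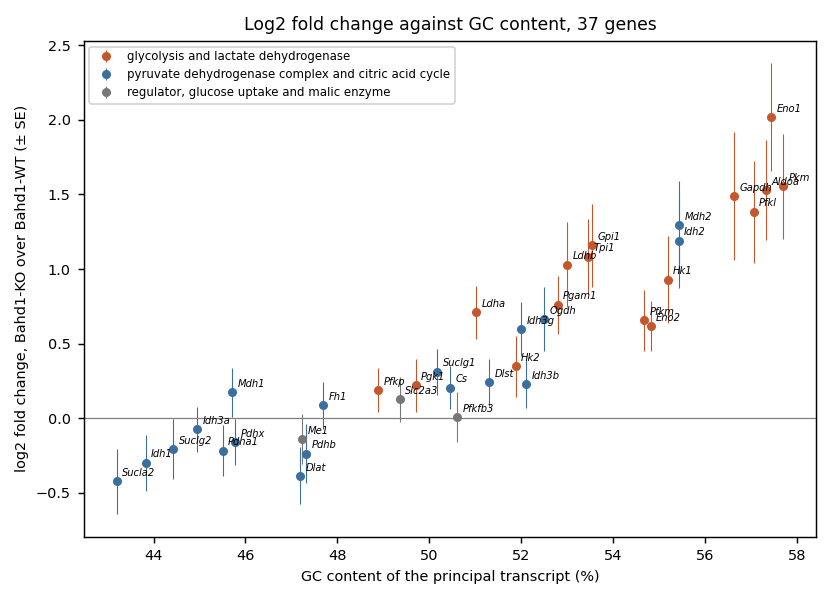
Log2 fold change of the 37 genes, Bahd1-KO over Bahd1-WT (bars for the SE, 3 mice per genotype), against the GC content of the principal transcript in percent. The points climb from Sucla2 at 43.2% and -0.42 to Eno1 at 57.4% and 2.02, and the glycolytic genes (orange) lie mostly at the GC-rich end.

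With an offset for the trend of each library on GC content and length, fitted over many genes, the log2 fold changes narrowed to a range of -0.24 to 1.08 with the longest and -0.18 to 0.90 with the principal transcripts. The offset did not take away the whole relation among the 37 genes, since their log2 fold changes still went with the GC content of the principal transcript with rho = 0.55 and 0.54, in the same order. When the offset used the longest transcripts, 9 genes had an adjusted p under 0.1, all higher, against 3.04% of all genes, and 30 of 37 were higher, against 42.4% of all genes. When it used principal transcripts, 8 genes had an adjusted p under 0.1, all higher, against 2.87% of all genes, and 31 of 37 were higher, against 45.7%. The 7 genes that had an adjusted p under 0.1 without the offset and with both forms of it were Gpi1, Aldoa, Tpi1, Eno1, Pkm, Ldha and Mdh2. With principal transcripts their log2 fold changes were 0.72, 0.40, 0.61, 0.90, 0.43, 0.60 and 0.44, so that Eno1 stayed the highest. Mdh1 joined them there, at 0.44 (adjusted p = 0.097), beside its mitochondrial partner with the same value. Pfkm (0.05) and Eno2 (-0.01) came near 0 there, and Hk1 was at 0.21 with the principal and 0.01 with the longest transcripts. Gapdh was at 1.08 with the longest and 0.43 with the principal transcripts, and Mdh2 at 1.05 and 0.44. The longest annotated transcripts of Gapdh and Mdh2 hold 52.6 and 50.9% GC and the principal ones 56.6 and 55.4%. By role, the median log2 fold change of the 16 glycolytic genes was 0.98 without an offset, 0.39 with the longest and 0.41 with the principal transcripts, and 14 and 15 of them were higher under these offsets. The median of the citric acid cycle was 0.22, 0.30 and 0.25, in the same order, with 10 of its 14 genes higher and 4 lower without an offset and 12 higher under each form of it. The median of the pyruvate dehydrogenase complex was -0.23, -0.04 and -0.03. The glycolytic and citric acid cycle medians thus lay closer together with the offset. With either offset 0 of the 37 genes were called, against 0.0125% of all genes, and 20 and 19 had an unadjusted p under 0.05, all higher, against 9.82% and 9.85% of all genes. Without Bahd1-KO replicate 2, the first form of the offset left 0 genes with an adjusted p under 0.1 and 15 with an unadjusted p under 0.05, all higher, against 6.67% of all genes.

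The mice did not contribute alike. Bahd1-KO replicate 2 had the highest of the Bahd1-KO values in 14 of the 16 glycolytic genes, and Bahd1-KO replicate 1 the lowest in 13 of them. Bahd1-WT replicate 2 had the lowest value of all 6 mice in 24 of the 37 genes. Without Bahd1-KO replicate 2, 17 genes had an unadjusted p under 0.05, all higher, against 15.5% of all genes, the median log2 fold change of the 37 genes was 0.29, and Eno1 was at 1.53, Pkm at 1.09 and Aldoa at 1.05.

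Compared per length of the longest transcript, Mdh1 was the most abundant of the 37 in Bahd1-WT at 315 ± 37 CPM per kb (SD, n = 3), followed by Aldoa at 254 ± 56, Eno2 at 189.7 ± 11.8 and Ldhb at 187 ± 36 CPM per kb. Each of these neighbours, Mdh1 and Aldoa, Aldoa and Eno2, and Eno2 and Ldhb, differed by no more than the sum of their spreads. In Bahd1-KO, Aldoa led at 734 ± 362 CPM per kb, ahead of Ldhb at 382 ± 155, Mdh1 at 356 ± 44 and Pkm at 296 ± 148 CPM per kb, and the spreads of these neighbours overlapped. Hk2 was the least abundant in both genotypes, at 0.83 and 1.06 CPM per kb.

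Of 51 other genes of the same routes, 47 were tested; the testis-specific Pdha2, Gapdhs, Pgk2 and Ldhc had too few counts. By edgeR, 19 genes were higher and 1 was lower in Bahd1-KO with an adjusted p under 0.1, against 14.7% and 4.77% of all genes. Among the higher genes with the largest log2 fold changes were the lactate exporter Slc16a3 (2.40 ± 0.51), the mitochondrial dicarboxylate carrier Slc25a10 (2.16 ± 0.52), the muscle-type phosphoglycerate mutase Pgam2 (1.92 ± 0.39) and pyruvate carboxylase (Pcx, 1.80 ± 0.40), which feeds oxaloacetate into the cycle and is an enzyme of astrocytes in the brain, each with an adjusted p of 0.0634. Pcx was at 22.8, 12.9 and 16.6 CPM in Bahd1-WT and 30.3, 95.9 and 55.5 CPM in Bahd1-KO, without overlap, whereas Slc16a3 and Pgam2 stayed below 4 CPM in all mice. Among the lower genes with the largest log2 fold changes were the aspartate-glutamate carrier Slc25a13 (-0.58), the neuronal monocarboxylate transporter Slc16a7 (-0.57), the dehydrogenase Dld (-0.45), which serves the pyruvate and 2-oxoglutarate complexes, and pyruvate dehydrogenase kinase 4 (Pdk4, -0.43), of which Slc16a7 was lower in each Bahd1-KO mouse than in each Bahd1-WT mouse and the other 3 overlapped. Their adjusted p by edgeR were 0.212, 0.142, 0.216 and 0.208, in this order, so that none of these 4 was under 0.1. With the offset on the longest transcripts the log2 fold change was 1.38 for Slc16a3 and 0.66 for Pcx (adjusted p = 0.0872 for both), 0.79 for Pgam2 (adjusted p = 0.138) and 0.59 for Slc25a10, whose groups then overlapped (adjusted p = 0.169). Of the lower genes, Slc16a7 was at 0.11 with that offset, the opposite sign, with overlapping groups, Dld at -0.02, Pdk4 at -0.15 and Slc25a13 at -0.46. With the principal transcripts these 8 genes kept these signs except Dld, at 0.05. Over the 47 genes, GC content of the longest transcript and log2 fold change had rho = 0.83, and with the offset on principal transcripts 7 genes had an adjusted p under 0.1, all higher, against 2.87% of all genes.

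Markers of brain cell types went both ways within most lists. By edgeR, 3 of 6 oligodendrocyte markers (Mbp, Mag and Cnp), 1 of 6 for astrocytes (Aldh1l1), microglia (Tmem119), endothelial cells (Cldn5) and choroid plexus (Ttr) each and 0 of 6 for neurons had an adjusted p under 0.1, all higher in Bahd1-KO, against 14.7% of all genes, while Mog and Mobp of oligodendrocytes had log2 fold changes of -0.08 and -0.21. With the offset on principal transcripts Mbp was at -0.29 (1.02 with the longest), Cnp at -0.12 and Tmem119 at 0.18, each with overlapping groups. Mag was at 0.51, Aldh1l1 at 0.49, Cldn5 at 0.90 and Ttr at 1.49 there, without overlap. The neuronal Rbfox3 went from 0.78 without an offset to -0.44 with it, and Mobp to -0.57. Both were then lower without overlap (edgeR, adjusted p = 0.0825 and 0.0865). Summed levels of the lists were 8267 to 9226 CPM in Bahd1-WT and 6511 to 8512 CPM in Bahd1-KO for neurons, 5470 to 5960 and 3461 to 5153 CPM for astrocytes, 5060 to 5853 and 5303 to 8245 CPM for oligodendrocytes, 294 to 333 and 224 to 308 CPM for microglia, 148 to 165 and 153 to 192 CPM for endothelial cells and 284 to 380.5 and 463 to 1085 CPM for choroid plexus. Ttr made up most of the choroid plexus sum, at 213 to 309 CPM in Bahd1-WT and 402 to 1018 CPM in Bahd1-KO. Of the rest of that list, Folr1 (0.66) and Aqp1 (0.37) had positive log2 fold changes. Kl (-0.40), Kcnj13 (-0.39) and Clic6 (-0.11) had negative ones, and Kl was lower without overlap. Red blood cell genes summed to 11.4 to 16.3 CPM in Bahd1-WT and 15.3 to 93.1 CPM in Bahd1-KO, with 4 of 6 higher at an adjusted p under 0.1, against 14.7% of all genes. Markers of lung epithelium, which a brain should lack, summed to 2.28 to 106 CPM in Bahd1-WT and 0.437 to 1.43 CPM in Bahd1-KO, with all 6 lower at an adjusted p under 0.1, against 4.77% of all genes. No marker was at 0 in all libraries. The part of cell composition in the glycolytic values was not tested.

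Several of the 37 genes have near-identical processed copies in the genome, and reads that match more than one place can be lost or divided in counting, so that the levels of Gapdh, Eno1, Aldoa, Pgk1, Pgam1 and Ldha are uncertain. The same holds for the shares of Eno2 and Ldhb, which rest on Eno1 and Ldha, and for the order of genes by level. The 10 copies listed under their names held at most 0.0631% of the counts of their parent genes, the highest being Gapdh-ps14 with 59 counts over 6 libraries, and 8 of the 10 had fewer than 10 counts.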

How the data were processed

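RNA-seq was done on brain RNA of 3 Bahd1-WT and 3 Bahd1-KO mice, grouped by their labels. According to the methods, the authors purified polyadenylated RNA, made stranded libraries and sequenced them in technical replicates; the deposited table has 1 column per mouse and 0 columns of other samples. The submitters' processing notes name cutadapt 1.11, STAR 2.5.0a, featureCounts 1.4.6-p3 and GRCm38, while the supplementary methods also name Tophat2 and both single-end and paired-end runs. The labels name another TruSeq kit than the methods, and whether the strand option used in counting was the right one for the kit is not stated. In all 254 pairs of a non-coding gene lying for at least 90% in exons of a coding gene (at least 1000 counts) on the other strand, the nested gene had fewer counts per kb, and 96.4% of all counts were in protein-coding genes, unlike counts of the opposite strand; whether reads of overlapping genes were kept apart by strand is not settled. The authors deposited raw counts per gene, without normalization or filter. Nothing states that same-numbered mice share a litter or batch, and their deviations correlated at -0.644, -0.656 and -0.144, so the numbers were not used as pairs. P-values measure the spread between these mice.

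Genes with at least 10 counts over the 6 libraries were tested with edgeR 4.0.16 (TMM, quasi-likelihood, genotype as the only factor) in R 4.3.3, with Benjamini-Hochberg adjustment over all of them. DESeq2 1.42.0, other scalings and filters, left-out mice, the replicate block and the offset were alternatives. Standard errors come from the quasi-likelihood fit. For the offset, natural splines in GC content (5 degrees of freedom) and in log length (3) were fitted to log2 CPM in each library, over 13250 genes. Lengths, GC content and coordinates came from GENCODE M21 on GRCm38; the principal transcript is the APPRIS one, which 16968 of the genes tested have. The offset on principal transcripts was added after seeing the data, as were the offset without Bahd1-KO replicate 2, the sum of both Aldoa rows, shares on principal lengths and isozyme ratios with the offset. Scripts were tested on simulated counts.

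The 37 genes, the pathway list and the markers were chosen with earlier results of these data known. All 37 are described; of the pathway list, the 5 higher and 5 lower with the largest log2 fold change and a mean of at least 1 CPM were selected, and some of them are not reported here. Libraries held 42297150 to 93557948 counts, so that 3 counts, taken as the floor, are 0.0321 to 0.0709 CPM; this covers counting error only.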

Additional observations from a re-analysis of the deposited data

How the results depend on the processing

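The count of 0 genes called among the 37 was kept with DESeq2's size factors and upper-quartile factors in edgeR, robust shrinkage, filterByExpr, the replicate block and all 4 forms of the offset. It was 9 with total counts, 10 without a filter on low counts, 9 and 10 with DESeq2 with and without the prior, and 0 to 11 with single mice left out, all higher in Bahd1-KO. The 17 genes with an adjusted p under 0.1 became 9 with the offset, 8 with the offset on principal transcripts, and 0 with the replicate block, the offset with the block and the offset without Bahd1-KO replicate 2; with single mice left out the count ran from 0 to 17 higher and 0 to 4 lower. The numbers do not pair the mice, so the loss under the block is not read as a weaker difference. Counts on the lower side at an unadjusted p under 0.05 were 1 with upper-quartile factors and 0 to 5 with mice left out, and genes lower without overlap 1 with upper-quartile factors and 0 to 9 with mice left out, the highest each time without Bahd1-KO replicate 1. The median log2 fold change was 0.17 with upper-quartile factors, which moved the median of all genes to -0.20, and 0.22 to 0.39 under every other alternative. Of the other pathway genes, the 19 higher with an adjusted p under 0.1 became 6 with the offset, 7 on principal transcripts and 0 with the block, with both, and with the offset without Bahd1-KO replicate 2, and 0 to 22 with mice left out. The count of 1 on the lower side became 0 with DESeq2's size factors, total counts, the block and each form of the offset, and 0 to 6 with mice left out. At an unadjusted p under 0.05 the 20 higher genes became 13, 12 and 11 with the offset, with the offset and block and with the offset without Bahd1-KO replicate 2, and the 2 lower ones 5 with upper-quartile factors, the offset and the offset on principal transcripts, 1 with total counts and the offset without Bahd1-KO replicate 2, and 0 to 7 with mice left out.

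Of the 37 genes, 24 kept their sign under all 19 alternatives. Under the offset, the offset with block, the offset without Bahd1-KO replicate 2 and the offset on principal transcripts, in this order, the log2 fold change was -0.075, -0.078, -0.0017 and -0.0075 for Eno2, 0.0057, 0.0042, 0.049 and 0.070 for Pdha1, 0.045, 0.044, 0.011 and 0.12 for Pdhx, 0.065, 0.065, 0.065 and 0.25 for Idh3a, 0.091, 0.091, 0.15 and 0.15 for Suclg2, and 0.13, 0.13, 0.14 and 0.060 for Me1, all of the opposite sign to the fit without offset. Under the first 3 of these Pfkm was at -0.026, -0.024 and -0.0071, under the last 3 Idh1 was at 0.0012, 0.042 and 0.068, and Pfkfb3 was at -0.047 with the offset, -0.038 with the block and -0.0036 on principal transcripts. Hk1 was at -0.035 with the offset without Bahd1-KO replicate 2, Idh3b at -0.024 on principal transcripts and Idh3a at 0.0037 with total counts. Upper-quartile factors gave -0.051 for Fh1, -0.13 for Pfkfb3 and -0.0077 for Slc2a3. Pfkfb3 was also at -0.0081 with filterByExpr and ran from -0.070 to 0.11 with single mice left out. The share of Pfkm among the phosphofructokinases, higher by 1.14 percentage points in Bahd1-KO, ran from -0.045 points without Bahd1-WT replicate 2 to 2.49 without Bahd1-WT replicate 3, and the other 8 shares kept their direction with single mice left out, on principal lengths and on raw counts. Shares were not run under the offsets, where by the fitted values the change in the log2 ratio of Pfkp to Pfkm turned to 0.41 with the longest and 0.27 with the principal transcripts, that of Hk2 to Hk1 to 0.12 with the longest (-0.0019 with the principal ones), and that of Ldhb to Ldha to -0.0038 with the principal ones. Where a sign or count changed, the cause was not tested. With 3 mice per genotype, a share cannot pass 0.05 in the exact test.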
